A study of Macaca fascicularis with 11 samples.

Results

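Cytosines near chromosome ends were examined in reduced representation bisulfite sequencing (RRBS) data of skeletal muscle. They are the listed cytosines of chromosomes 1 to 20, with chromosomes 10 and 11 left out, whose position is within 1000000 bp (1 Mb) of the lowest or of the highest position listed on their chromosome. There were 3502 such cytosines, 8.22% of the 42613 listed on these 18 chromosomes and 5.70% of the 61399 listed in all. They lie in 36 areas, called ends here, of which each chromosome has a low-coordinate and a high-coordinate one. The other 39111 cytosines of the same chromosomes form the interior, with which the ends were compared.

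The DNA came from muscle biopsies of 11 adult male Cynomolgus macaques, with 1 library per animal, and the biopsied muscle was the quadriceps. The animals form 1 group, and no age, treatment or genotype is used here. In RRBS the genome is cut at short recognition sites, converted with bisulfite and sequenced, and a methylation ratio is the share of reads in which a cytosine was protected from conversion. Ratios from 0 to 1 are given below as a methylation level in percent. A ratio was listed for all 11 animals at each cytosine, with no missing value and no pair of identical animals. The files give no read counts, so the depth behind a ratio is unknown beyond the authors' coverage filter, and no counting interval is given for a level.

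In mammals, DNA methylation sits mostly on cytosines followed by guanine, called CpGs. Most CpGs of a somatic cell are methylated, while those of CpG islands, the dense clusters found at many promoters, are usually not. The outermost parts of chromosomes next to the telomere repeats, the subtelomeres, are rich in CpGs, in recently duplicated segments and in repeats. Subtelomeric CpGs are generally methylated in somatic cells, and their repeats make them hard to assemble. RRBS favours CpG-dense stretches wherever these lie.

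Positions are those of the Yan et al. assembly of the Cynomolgus macaque, to which the authors aligned the reads. No sequence or gene annotation of this genome was used here, so no gene is named and the chromosome lengths are not known. An end therefore starts at the outermost listed cytosine and not at the telomere. On 14 of the 18 chromosomes the lowest listed position was within 100000 bp of coordinate 1, with position 583 on chromosome 2 the closest. On the other 4 chromosomes it was farther in, at 843295 on chromosome 12, 177152 on chromosome 13, 561626 on chromosome 17 and 991115 on chromosome 18. The low-coordinate ends of these 4 hold 91 of the 3502 end cytosines. Without them the mean difference between ends and interior was 19.0 percentage points, as with them. So few cytosines could hardly move this pooled value, whatever their level. Their own levels ran from 27.8% on chromosome 13 to 59.3% on chromosome 18.

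Of the 11 libraries, 4 stood apart from the rest. A ratio of exactly 0 was listed for 12.5% to 14.3% of all cytosines in the animals numbered 2606, 2646, 5296 and 5272, and for 21.99% to 28.4% in the other 7. At end cytosines that averaged under 10% in the remaining animals, the same 4 animals had levels of 4.85% to 5.67%, against 2.73% to 3.25% in the other 7. The 2 sets of libraries did not overlap in either measure. Each tested result below was recalculated without these 4 animals, an alternative chosen after seeing the data.

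The ends were more methylated than the interior in each animal. The level of an animal over the end cytosines was 50.1% at the lowest, 50.5% at the median and 51.8% at the highest. Over the interior cytosines it was 30.9%, 31.4% and 32.8%. The 2 ranges did not overlap: no animal was below 50% in the ends, and none came near it in the interior. The mean was 50.8% ± 0.637 (SD, n = 11 animals) in the ends and 31.7% ± 0.735 (SD, n = 11) in the interior. The difference was 19.0 ± 0.478 percentage points (SD, n = 11), and the ends were higher in 11 of 11 animals (two-sided permutation test on paired differences, p = 0.000977, and 0.00127 after Benjamini-Hochberg adjustment over 13 comparisons, called adjusted p below). This p is the smallest that 11 animals allow. The animals were measured at the same positions of 1 genome, so the test concerns their shared direction at these cytosines and not a sample of positions. In the 7 animals left without the 4 that stood apart, the difference was 19.3 percentage points, higher in 7 of 7, as it had to be after 11 of 11.

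**Figure D1:**
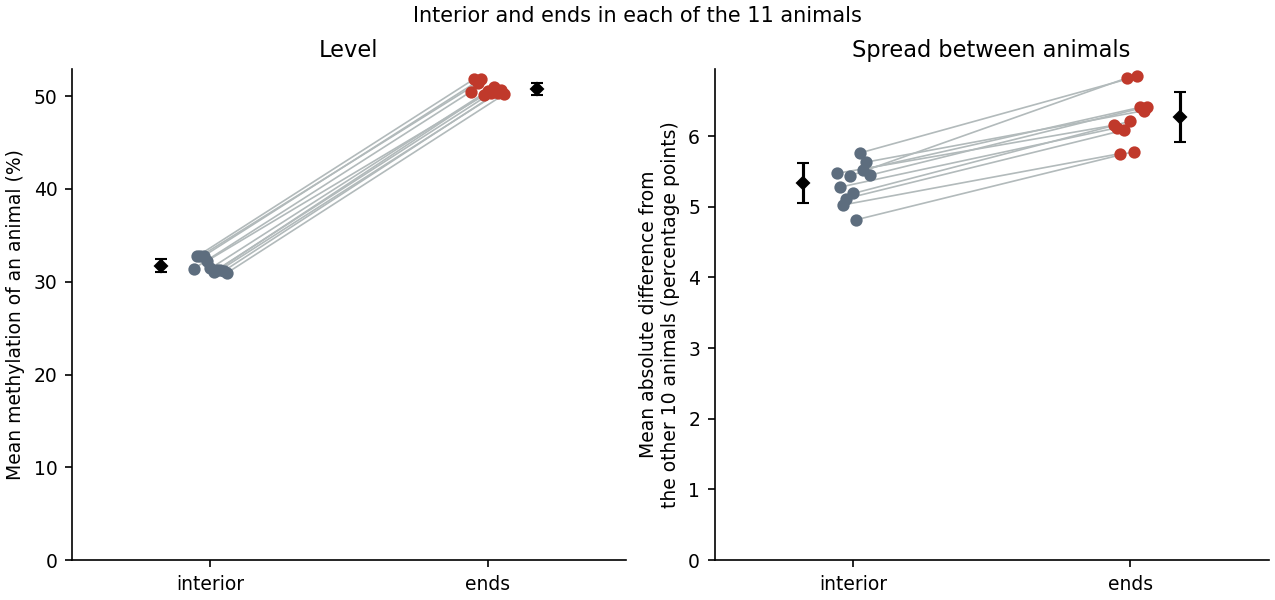
Mean methylation (left, %) and spread between animals (right, mean distance from the average of the other 10 animals, percentage points) in the interior and in the ends. Each point is 1 of 11 animals, lines join the values of an animal, and diamonds with bars give the mean ± SD over animals. All 11 lines rise from interior to ends in both panels, from 31.7% to 50.8% on average for the level and from 5.34 to 6.27 for the spread.

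The difference was also looked at as shares of low, intermediate and high cytosines. These shares are cut from the same ratios as the mean, so they describe the difference in level and are no separate evidence for it. Taking each animal's own ratios, low cytosines, with a ratio below 0.3, made up 38.6% ± 0.779 (SD, n = 11 animals) of the end cytosines and 63.4% ± 0.589 (SD, n = 11) of the interior ones. High cytosines, above 0.7, made up 42.8% ± 0.902 (SD, n = 11) and 24.6% ± 0.199 (SD, n = 11). Intermediate cytosines, from 0.3 to 0.7, made up 18.6% ± 1.04 (SD, n = 11) and 12.04% ± 0.608 (SD, n = 11). The share of low cytosines was smaller in the ends in 11 of 11 animals, and those of intermediate and high cytosines were larger in 11 of 11. Each of the 3 differences had p = 0.000977 by the same two-sided permutation test (adjusted p = 0.00127). The difference in intermediate cytosines was 6.56 percentage points. It was 4.67 with ends of 500000 bp and 10.5 with class bounds of 0.2 and 0.8.

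By the mean over animals, 1314 end cytosines were low, 682 intermediate and 1506 high. The median end cytosine had a level of 55.8%, while the median interior cytosine had 7.19%. Cytosines below 10% were the largest class of either kind, with 28.4% of the end cytosines and 53.5% of the interior ones. Those from 90% upward followed in the ends with 23.0%, against 14.7% in the interior. A ratio of exactly 0 was listed in the median animal for 14.1% of the end cytosines and 27.5% of the interior ones. A ratio of exactly 1 was listed in the median animal for 9.19% and 5.83%.

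**Figure D2:**
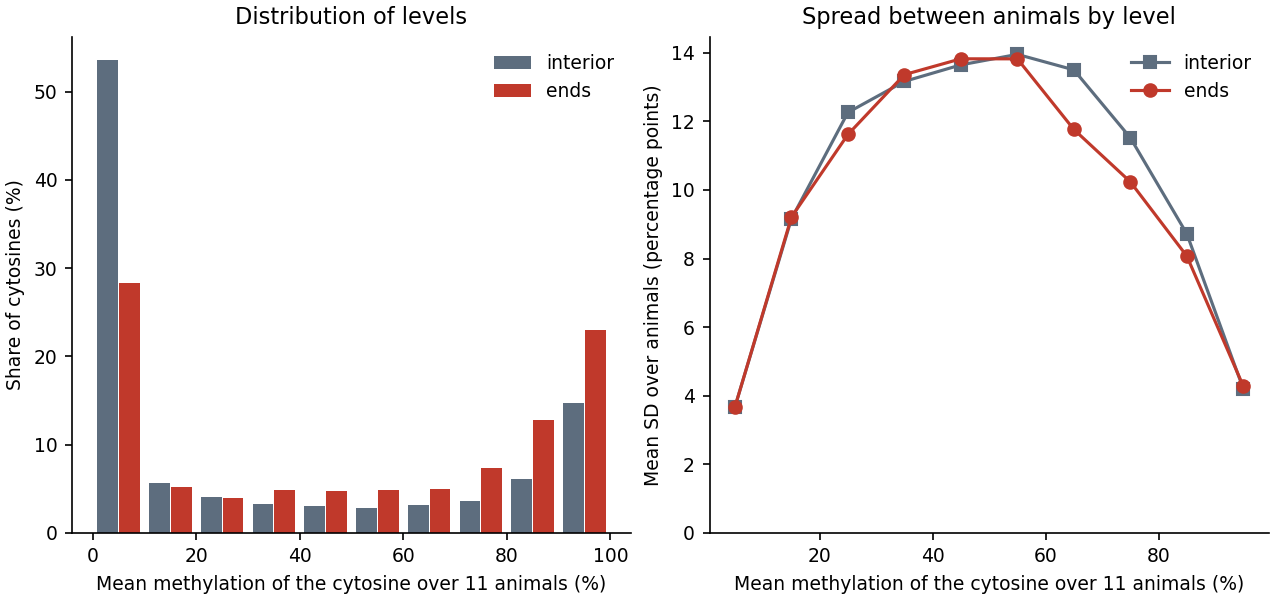
Left, share of cytosines (%) by their mean methylation over 11 animals, in 10 bins of equal width, for the ends and the interior. Right, mean SD over animals (percentage points) of the cytosines of each bin. The lowest bin holds 28.4% of the end and 53.5% of the interior cytosines, and in the right panel the ends lie below the interior in 6 of 10 bins.

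Listed cytosines were also packed more densely in the ends. The ends held 97.3 listed cytosines per Mb and the interior 15.8 per Mb, a ratio of 6.15. The table lists the same cytosines for all animals, so this ratio has no replicates and was not tested. The end cytosines fell into 940 runs, a run being a group of listed cytosines of either strand at most 100 bp from the next. There were 26.1 runs per Mb in the ends and 3.93 per Mb in the interior. A run held 3.73 cytosines on average in the ends and 4.02 in the interior. More runs, and not fuller ones, made up the difference in density.

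Of the 36 ends, 33 were denser than the interior of their own chromosome, and both ends were denser on 15 of the 18 chromosomes. As background, 33.5% of the 2463 windows of 1 Mb tiled through the interior were denser than that same interior mean. The ends held between 3 and 271 cytosines, with a median of 87. The interior windows held a median of 8, and 569 of them (23.1%) held none. An end starts at a listed cytosine and so cannot be empty, which by itself favours the ends in this comparison. Of the 1894 interior windows that held any, 43.6% were denser than the interior mean. The ratio of an end to the interior of its chromosome had a median of 5.06, was at least 2 in 31 ends and at least 5 in 18. For 10 ends, no interior window of the same chromosome held as many cytosines. The 10 ends with the most cytosines held 1824 of the 3502 (52.1%), so that pooled values lean on them.

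The 3 densest ends were on chromosomes 19, 20 and 9. The low-coordinate end of chromosome 19, from position 28271 to 1016720, held 271 listed cytosines, while the interior of this chromosome had 57.6 per Mb, the densest of the 18. That of chromosome 20, from 11918 to 1009668, held 226 against 25.9 per Mb in its interior. The high-coordinate end of chromosome 9, from 132543839 to 133525537, held 216 against 14.6 per Mb. Chromosome 9 had the most end cytosines, 413, which are 17.7% of its listed cytosines. At the other extreme, the high-coordinate end of chromosome 1, from 231469418 to 232169445, held 3 listed cytosines against 17.6 per Mb in the interior. The low-coordinate end of chromosome 13, from 177152 to 393229, held 5 against 17.1 per Mb. On chromosome 12, the low-coordinate end from 843295 to 1618361, held 15 against 15.2 per Mb. These 3 were the ends that were not denser than their interior, and in 2 of them the lowest listed position was itself far from coordinate 1.

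**Figure D3:**
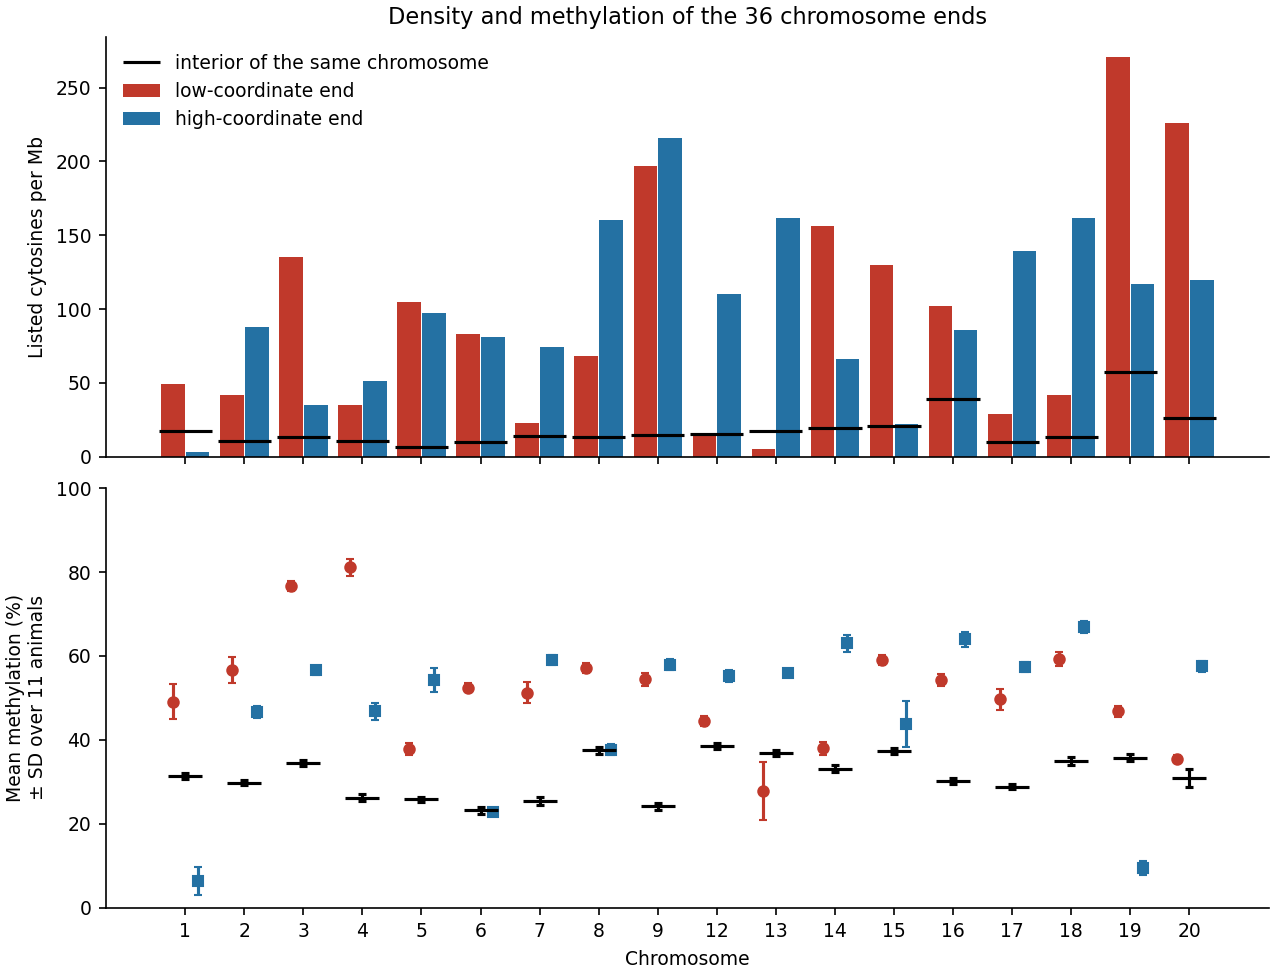
Listed cytosines per Mb (top) and mean methylation ± SD over 11 animals (bottom, %) of the 36 ends, by chromosome. Bars and points show the low-coordinate and the high-coordinate end, and the black marks show the interior of the same chromosome. Of the 36 ends, 33 stand above the interior in density and 32 in level. Among the ends with at least 10 listed cytosines, the high-coordinate one of chromosome 19 lies lowest at 9.56%.

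The level differed widely from end to end. For the 34 ends with at least 10 listed cytosines, the mean over animals ran from 9.56% to 81.1% with a median of 54.4%. It was 50% or more in 21 of them (61.8%), while this was so in 179 of 1097 interior windows with at least 10 cytosines (16.3%). The median interior window had a level of 25.4%. Each of these windows was compared with the other interior cytosines of its chromosome by the same permutation test over animals, with p-values adjusted over all 1131 windows. Of the 34 ends, 31 were higher than their interior at an adjusted p below 0.05, 1 was lower and 2 did not pass. Among the interior windows, 37.7% were called higher and 57.9% lower. Almost any window thus passes this test against the rest of its chromosome, some of them with animals on both sides. The ends are told from the interior windows by their direction and not by passing the test. The difference from the interior had a median of 21.9 percentage points over the 34 ends and -6.48 over the interior windows.

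The most methylated end was the low-coordinate one of chromosome 4, from position 40463 to 985022. Its 35 cytosines had a level of 76.7% in the lowest animal, 81.6% in the median and 83.4% in the highest. All 11 animals were thus far above the interior of chromosome 4, which had 26.2%. The low-coordinate end of chromosome 3, from 20193 to 845867 with 135 cytosines, had 74.9%, 76.7% and 78.7% in the lowest, median and highest animal, against 34.5% in the interior. The high-coordinate end of chromosome 18, from 74631381 to 75594024 with 162 cytosines, had 64.4%, 66.6% and 69.0%, against 35.0%. In these 3 ends the cytosines with a mean above 70% made up 77.1%, 74.8% and 61.1%.

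Among the 34 ends with at least 10 cytosines, the least methylated was the high-coordinate one of chromosome 19, from position 64329386 to 65326615. Its 117 cytosines had a level of 6.84% in the lowest animal, 9.42% in the median and 12.1% in the highest, against a mean of 35.7% in the interior. It was the 1 end called lower, in 11 of 11 animals, and 93.2% of its cytosines had a mean below 30%. Without animal 2666, an alternative added after seeing the data, 2 ends were called lower. The high-coordinate end of chromosome 6, from 180066389 to 180941398 with 81 cytosines, had 21.7%, 22.5% and 24.5% in the lowest, median and highest animal, against 23.2% in the interior. This end and the high-coordinate end of chromosome 8, with 37.7% against 37.6%, were the 2 that did not pass (adjusted p = 0.304 and 0.665, permutation test). The low-coordinate end of chromosome 20 had 33.7%, 35.6% and 36.6%, and was higher than the interior in 10 of 11 animals (adjusted p = 0.00214, permutation test). That interior varied more than any other of the 18, with 30.9% ± 2.20 (SD, n = 11) and a range from 27.9% to 35.3% that overlaps the end's.

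The 2 ends of a chromosome could differ more from each other than from the interior. On chromosome 19 the low-coordinate end had 46.8% ± 1.30 (SD, n = 11 animals) and the high-coordinate one 9.56% ± 1.69 (SD, n = 11). Pooled over both its ends, chromosome 19 had 35.6% ± 1.07 (SD, n = 11) in the ends and 35.7% ± 0.795 (SD, n = 11) in the interior, and the ends were higher in 6 of 11 animals. On the other 17 chromosomes, the pooled ends were higher than the interior in 11 of 11 animals, by up to 38.0 percentage points on chromosome 3. The median difference over the 18 chromosomes was 19.7 percentage points.

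Within 1 Mb, the low-coordinate and the high-coordinate ends differed by less than 1 percentage point, and this difference depended on the width of the ends and on how cytosines were counted. The 1713 cytosines of the low-coordinate ends had 50.6% ± 0.734 (SD, n = 11 animals) and the 1789 of the high-coordinate ends 50.9% ± 0.576 (SD, n = 11). The difference of 0.308 percentage points was positive in 8 of 11 animals (permutation test, p = 0.0117, adjusted p = 0.0138). With ends of 2000000 bp the high-coordinate ends were higher by 3.19 percentage points, in 11 of 11 animals (adjusted p = 0.00115, permutation test). With each run counted once they were lower in 11 of 11 animals, with a difference of -1.35. Without the 4 animals that stood apart it was 0.346, positive in 6 of 7, and no longer passed (adjusted p = 0.0554, permutation test).

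The level and the density changed with distance from the end, with no lasting step at 1 Mb. In the outermost 100 kb, the density was 155 cytosines per Mb and the level 54.4% ± 1.31 (SD, n = 11 animals). Within the ends, the 10 bins of 100 kb had levels between 42.8% and 54.4%, and no steady course was seen across them. The 224 cytosines just inside the border, from 0.9 to 1 Mb, had 52.6% ± 0.639 (SD, n = 11), and the 364 just outside, from 1 to 1.1 Mb, had 41.8% ± 1.26 (SD, n = 11). From 1.1 to 1.5 Mb the level was back at 50.7% with 103 cytosines per Mb. Farther in, it was 41.6% from 2 to 3 Mb, 38.6% from 3 to 5 Mb, 33.7% from 5 to 10 Mb and 28.7% from 10 to 20 Mb. The density in these 4 bins was 46.4, 41.9, 23.3 and 16.01 per Mb. Beyond 50 Mb the level was 27.2% ± 0.765 (SD, n = 11) and the density 10.6 per Mb. Chromosomes 16 to 20 do not reach that far from their ends, so the bins do not hold the same chromosomes. On the other 13 alone, taken after seeing the data, the level was 57.9% in the outermost 100 kb, 35.3% from 5 to 10 Mb and 28.8% from 10 to 20 Mb, with 150.4, 20.6 and 11.96 cytosines per Mb. The first 1 Mb is therefore the outer part of a zone of several Mb, and with the interior taken only from 10 Mb inward the difference was 22.5 percentage points (an alternative chosen after seeing the data).

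**Figure D4:**
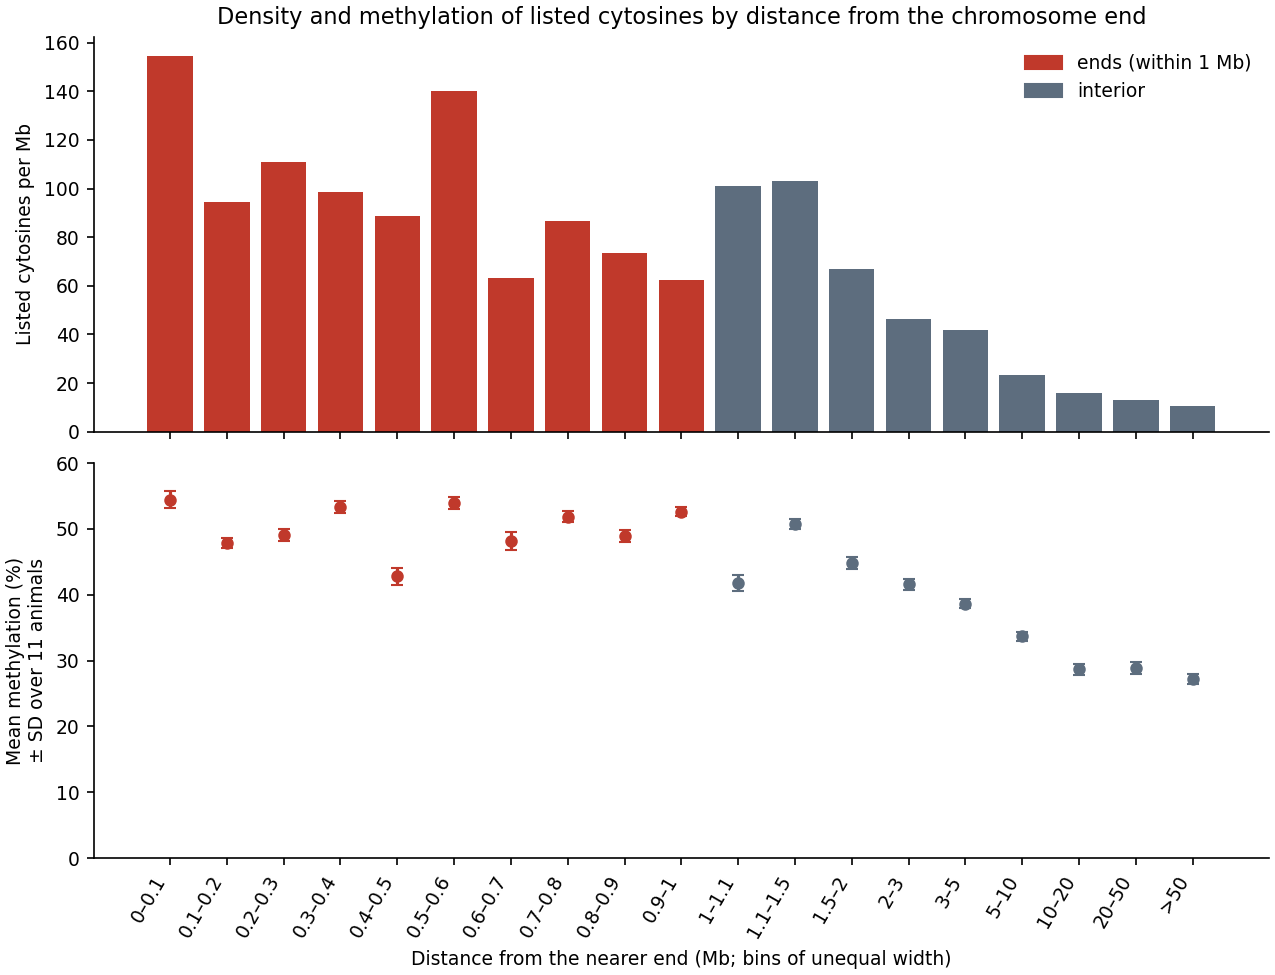
Listed cytosines per Mb (top) and mean methylation ± SD over 11 animals (bottom, %) by distance from the nearer outermost listed cytosine, pooled over 18 chromosomes in bins of unequal width (Mb). Red marks the ends and grey the interior. The density falls from 155 per Mb in the outermost bin to 10.6 beyond 50 Mb, and the level from 54.4% to 27.2%. The last bin holds no cytosine of chromosomes 16 to 20.

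The ends were more methylated at each local density. Lone cytosines, with no other listed within 100 bp, had a level of 44.1% ± 0.944 (SD, n = 11 animals) in the ends and 33.9% ± 1.12 (SD, n = 11) in the interior. In runs of 2 to 4 the levels were 50.1% and 36.4%, and in runs of 5 to 9 they were 51.5% and 29.7%. In runs of 10 or more they were 52.8% ± 1.01 (SD, n = 11) and 26.4% ± 1.03 (SD, n = 11). The difference was 10.2, 13.6, 21.9 and 26.3 percentage points in the 4 classes, higher in 11 of 11 animals in each (two-sided permutation test, p = 0.000977, adjusted p = 0.00127). The growth of the difference from class to class was not tested. The same held over windows, as a description: the 16 ends with 100 or more cytosines had a median level of 54.8%, and the 38 interior windows with as many had 34.5%.

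Runs of low, intermediate and high mean methylation were all more frequent in the ends, to different degrees. Per Mb, the ends had 9.36 low runs against 2.33 in the interior, a ratio of 4.03. They had 7.06 intermediate runs against 0.612, a ratio of 11.5, and 9.69 high runs against 0.996, a ratio of 9.73. Low runs, the usual state of CpG islands, were thus also more frequent in the ends than in the interior. Among runs of at least 10 cytosines, 17 of 50 in the ends were low (34.0%), 9 intermediate and 24 high (48.0%). In the interior 377 of 532 were low (70.9%), 53 intermediate and 102 high (19.2%). The 50 dense runs lay in 25 of the 36 ends, and 7 ends had both a low and a high one.

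**Figure D5:**
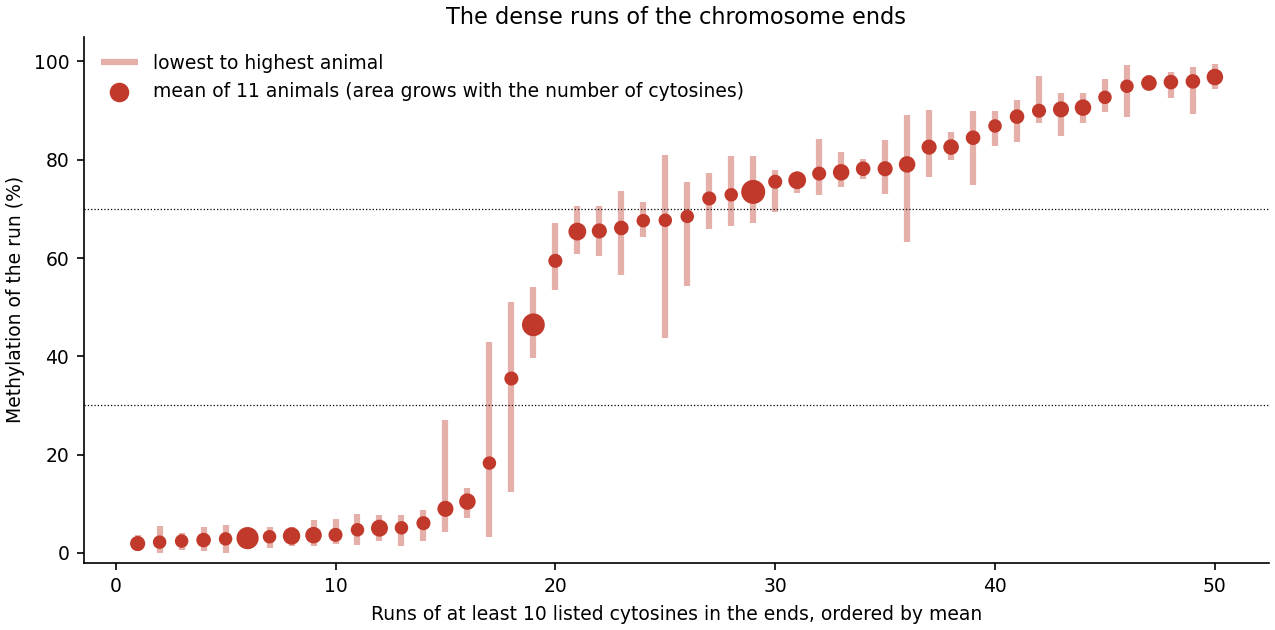
Methylation (%) of the 50 runs of at least 10 listed cytosines in the ends, ordered by their mean. Points give the mean over 11 animals, with an area that grows with the number of cytosines, bars run from the lowest to the highest animal, and dotted lines mark 30% and 70%. There are 17 runs below 30% and 24 above 70%, and a few of the 50 have bars much longer than the rest.

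Of the 3 runs with the most cytosines, 1 was high, 1 intermediate and 1 low. The run with the most, on chromosome 5 from 185147587 to 185147792, held 37 cytosines and lay 12490 bp from the outermost listed one. Its level was 67.0% in the lowest animal, 72.5% in the median and 80.8% in the highest, and its single cytosines had means from 45.3% to 89.8%. The run on chromosome 9 from 635825 to 635966, with 33 cytosines, had 39.6%, 46.1% and 54.1% in the lowest, median and highest animal. This intermediate mean was made of unlike cytosines, since their own means ran from 0.699% to 86.5%. The run on chromosome 20 from 147797 to 147953, with 31 cytosines, had 2.01%, 2.48% and 4.93%, and none of its cytosines had a mean above 7.80%. Its 4 highest animals were the 4 libraries that stood apart.

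The most methylated dense runs were nearly full. The run on chromosome 3 from 611595 to 611665, with 16 cytosines, had 94.4% in the lowest animal, 97.1% in the median and 99.4% in the highest. On chromosome 8, the run from 149986010 to 149986244 with 12 cytosines had 89.4%, 96.2% and 98.8%. On chromosome 16, the run from 812173 to 812249 with 12 cytosines had 92.5%, 96.4% and 97.7%. At the other extreme, a run of 13 cytosines on chromosome 16 from 582429 to 582459 had 0.334%, 1.91% and 3.67%. It lies in the same end as the full run just named. A run of 10 on chromosome 8 from 150234849 to 150234898 had 0%, 2.29% and 5.49%, and a run of 10 on chromosome 20 from 765473 to 765616 had 0.536%, 2.19% and 4.08%. Chromosome 8 also has its full and its empty run in 1 end, the high-coordinate one, 1 of the 2 ends that did not pass the window test. These runs were picked by their levels, so the values are descriptions without a test.

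Low and high cytosines could lie within short distances of each other in a single end. In 10 of the 50 dense runs, a cytosine with a mean below 30% and another above 70% lay in the same run. In the interior this was so in 47 of 532. The 50 runs spanned 31 to 260 bp, with a median of 86 bp. The outermost listed cytosines of the 36 ends were themselves mixed, with 15 below 30%, 8 from 30% to 70% and 13 above 70%.

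Over all cytosines, the spread between animals was larger in the ends. It was taken per animal as the distance of its ratio from the average of the other 10, without sign, and averaged over cytosines. It was 5.75 percentage points in the lowest animal, 6.21 in the median and 6.84 in the highest over the end cytosines, and 4.82, 5.44 and 5.76 over the interior ones. The ranges touch, but each animal was further from the others in the ends than in the interior. The difference was 0.931 ± 0.1999 percentage points (SD, n = 11 animals), positive in 11 of 11 (two-sided permutation test, p = 0.000977, adjusted p = 0.00127). The SD over animals of a cytosine averaged 7.31 percentage points in the ends and 6.22 in the interior. It was larger in the ends on 15 chromosomes and smaller on 3, chromosomes 8 (5.83 against 6.37), 13 (5.50 against 6.05) and 20 (6.72 against 7.73). In runs of 10 or more cytosines it was also slightly smaller in the ends, with 5.83 against 5.97, whereas it was larger in the ends in the 3 classes of shorter runs. An SD above 20 was found at 94 end cytosines (2.68%) and at 650 interior ones (1.66%). Each animal also enters the averages used for the others, which ties the 11 values to each other.

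The spread depends on the level, and the comparison of ends with interior differed from level to level. At low cytosines, sorted by the mean of the other animals, the spread was 4.62 ± 0.266 percentage points (SD, n = 11) in the ends and 4.07 ± 0.202 (SD, n = 11) in the interior, larger in 11 of 11 animals (permutation test, p = 0.000977, adjusted p = 0.00127). The difference of 0.545 was 0.279 with class bounds of 0.2 and 0.8. The low cytosines of the ends were less extreme, with 24.4% of them at 10% or above, against 15.5% in the interior. In the lowest bin alone, below 10%, the mean SD was 3.67 in the ends and 3.68 in the interior. From 10% to 20% it was 9.21 and 9.16, and from 20% to 30% it was 11.6 and 12.3. The part of the levels within the class in the tested difference was not tested.

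At intermediate cytosines the spread was 11.2 ± 1.14 (SD, n = 11) in the ends and 11.5 ± 1.04 (SD, n = 11) in the interior, larger in 5 of 11 animals (permutation test, p = 0.173, adjusted p = 0.187). With class bounds of 0.2 and 0.8 it was smaller in the ends, with a difference of -0.513 that passed (adjusted p = 0.0138, permutation test). At high cytosines it was 5.47 ± 0.2199 (SD, n = 11) and 5.51 ± 0.349 (SD, n = 11), larger in 3 of 11 (permutation test, p = 0.558, adjusted p = 0.558). Neither small difference was steady in size or in sign. With ends of 500000 bp the intermediate one was 0.00941 (adjusted p = 0.976, permutation test). With class bounds of 0.2 and 0.8 the high one was 0.104 (adjusted p = 0.170, permutation test). The intermediate one, -0.307, was -0.502 without the 4 animals that stood apart (smaller in 6 of 7, adjusted p = 0.0677, permutation test) and -0.441 to -0.163 when single animals were left out. The high one, -0.0423, was -0.131 without the 4 and -0.0943 to -0.00305 when single animals were left out. By bins of 10 percentage points, the mean SD was larger in the ends in 4 of 10 bins and smaller in 6, and the widest gap was from 60% to 70%, with 11.8 in the ends and 13.5 in the interior. This gap is wider than the one between the averages over all cytosines, 7.31 and 6.22, and runs the other way. The counting error of a ratio also peaks at intermediate levels, and its part in these spreads was not tested, since it needs the read counts.

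Averaged over a whole end, the animals were close together. The SD over animals of an end's mean was 1.41 percentage points at the median of the 34 ends with at least 10 cytosines, and between 0.826 and 5.53. For interior windows with at least 10 cytosines the median was 1.73. At the median those windows held fewer cytosines than the ends, and the part of this in the 2 medians was not tested. The widest end was the high-coordinate one of chromosome 15, with 22 cytosines and 43.8% ± 5.53 (SD, n = 11).

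The dense run with the largest SD over animals was the outermost on chromosome 9, from 133525505 to 133525537. Its 11 cytosines include the highest listed position of the chromosome. The run had a level of 12.5% in the lowest animal, 41.5% in the median and 51.0% in the highest (SD 15.4 percentage points, n = 11). The animals fell into 2 sets, with 12.5%, 14.03%, 19.9% and 20.7% in the animals numbered 2624, 5272, 2595 and 2673, and 41.0% to 51.0% in the other 7. These 4 share only animal 5272 with the libraries that stood apart at low cytosines. The next dense run inward, from 133524289 to 133524356, had an SD of 6.48 around a mean of 68.5%.

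The next dense run by SD, on chromosome 19 from 64847641 to 64847749, had 10 cytosines and levels of 3.32%, 19.1% and 43.0% in the lowest, median and highest animal (SD 11.0, n = 11). Animal 2595 was the highest by a wide margin, the next being 24.7%. The SD without that animal was 7.77. The third, on chromosome 1 from 887566 to 887617, had 10 cytosines and 43.7%, 70.7% and 80.9% (SD 10.5, n = 11). Animal 5295 was the lowest, the next being 59.1%, and without it the SD was 7.18. In these 2 runs, much of the SD thus rests on 1 animal.

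The 3 single cytosines with the largest SD over animals stood beside steadier neighbours. They were picked by their SD, so nearly any neighbour had to have a smaller one, and the values are descriptions without a test. At position 94843420 of chromosome 17 (minus strand), the level was 0% in the lowest animal, 75.0% in the median and 90.9% in the highest (SD 33.5, n = 11). Of the 11 animals, 2 were below 20% and 3 above 80%. Its closest same-strand neighbour, 7 bp away, had an SD of 11.1 around a mean of 76.0%. At position 711772 of chromosome 3 (minus strand) the values were 0%, 93.0% and 100% (SD 32.7, n = 11), with 1 animal below 20% and 7 above 80%. Animal 2654 was the one at 0%, and without it the SD was 22.2. The neighbour at 29 bp had an SD of 9.75. At position 854719 of chromosome 16 (plus strand) the values were 0%, 26.1% and 90.0% (SD 32.3, n = 11), and the neighbour at 16 bp, with a mean of 95.1%, had an SD of 6.32. Sequence variants at these positions were not analysed here.

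Both cytosines of a CpG, one per strand, were listed at 353 of the 3149 CpGs of the ends (11.2%) and at 2093 of 37018 in the interior (5.65%). At the 353, the plus strand had a mean of 64.1% and the minus strand 63.0%. The means of the 2 strands differed by more than 20 percentage points at 43 of the 353 (12.2%), and at 280 of the 2093 (13.4%). Of all end cytosines, 46.1% were on the plus strand, against 48.9% in the interior. Over all cytosines the strand means were 53.5% (plus) and 48.5% (minus) in the ends, and 32.7% and 30.8% in the interior. These strand differences were not tested. Counting both strands of a CpG once left the direction and the test of the level and of the spread as they were.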

How the data were processed

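RRBS methylation ratios of skeletal muscle from 11 animals were used as the authors deposited them, 1 ratio from 0 to 1 per cytosine and animal. According to the study's methods, the authors removed bases of quality below 20 and reads under 20 bp, aligned reads with RRBSMAP to the Yan et al. assembly of the Cynomolgus macaque, required a coverage of at least 10 reads per CpG and obtained ratios with methratio. Tool versions are not given in the sources used here. The methods name 1 enzyme, MspI, and the EpiTect kit for conversion, whereas per the labels TaqαI was used after MspI, and conversion was by the EZ-96 DNA Methylation-Gold Kit. Animal numbers head the columns and occur in no sample label, so each column was taken as 1 of 11 animals in a single group. Read counts and coverage were not used here, so no coverage minimum was varied.

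The members of the ends and the lists were chosen with earlier results of these data known. Means per animal over end and interior cytosines were compared by a permutation test on paired differences, two-sided, counting all 2048 sign changes, with Benjamini-Hochberg adjustment over 13 comparisons. Windows of 1 Mb with at least 10 cytosines were tested in the same way, with adjustment over all 1131 windows and a threshold of 0.05. Density was not tested. Named are the 3 densest and sparsest ends, the 3 most and least methylated of the ends with at least 10 cytosines, the 3 dense runs with the most cytosines, highest mean, lowest mean and largest SD, and the 3 cytosines with the largest SD; other regions named were picked after their values were seen. Python 3.11.15, numpy 2.4.6, pandas 2.3.3, scipy 1.17.1 and matplotlib 3.10.9 were used. The calculations were tested on simulated data. Alternatives are named in the closing section.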

Additional observations from a re-analysis of the deposited data

How the results depend on the processing

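The 10 comparisons of ends with interior that passed the threshold were recalculated 163 times. All 163 kept their direction and passed, with an adjusted p of at most 0.0203, reached without the 4 animals that stood apart, where 7 animals allow no p below 0.0156. For the level, the shares and the levels by run class, all animals already went the same way. Leaving animals out could not change that and had to give the smallest possible p. For these comparisons, only the other alternatives could have come out otherwise. The difference in level ran from 14.8 to 22.5 percentage points and that in spread from 0.720 to 1.24 over the alternatives that kept all or 7 animals. The 14.8 was with chromosomes 10 and 11 included, where the interior rose from 31.7% to 38.0%. The 22.5 was with the interior taken only from 10 Mb. When single animals were left out, the 2 differences ran from 19.0 to 19.2 and from 0.885 to 0.965. The alternatives were other widths of the ends, class bounds and joining distances, leaving out ratios of exactly 0 or 1, counting strands or runs once, weighting chromosomes equally, including chromosomes 10 and 11, and leaving out chromosome 9. Leaving out the 4 animals, the interior nearer than 10 Mb or the 4 late-starting ends was added after seeing the data. So was leaving out each animal in the window test and at the named runs and cytosines. The spread at intermediate cytosines differed by 0.00941 with ends of 500000 bp and by -0.513 with class bounds of 0.2 and 0.8, where that at high cytosines differed by 0.104. The high-coordinate ends differed from the low-coordinate ones by -0.0152 with ends of 500000 bp, by 3.19 with ends of 2000000 bp, by -1.35 with runs counted once and by 0.346 without the 4 animals. The cause was not tested. The density ratio was 6.70 with ends of 500000 bp, 6.64 for runs, 5.91 with chromosomes 10 and 11 and 5.72 without chromosome 9, outside its 95% binomial interval of 5.94 to 6.36 (Wilson), which covers counting error only and takes cytosines as independent, which they are not. Between 31 and 33 ends passed the window test, the 33 without animal 2666, where 2 ends were called lower. Without read counts, the part of depth in any single ratio is not known.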

Other observations

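Chromosomes 10 and 11 and the X chromosome are outside the comparison, and the values of their ends are given by the same rule. On chromosome 10 the low-coordinate end held 409 cytosines with a level of 66.1% ± 0.487 (SD, n = 11 animals) and the high-coordinate end 245 with 51.6% ± 0.702 (SD, n = 11). The interior of that chromosome had 64.0% ± 0.350 (SD, n = 11), so its 2 ends lay on either side of it, each in 11 of 11 animals. The plus strand held 73.3% of the cytosines in its low-coordinate end. On chromosome 11 the 2 ends had 52.7% and 66.4%, both above the interior at 51.4% in 11 of 11 animals.

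On the X chromosome the high-coordinate end held 141 of the listed cytosines, against 2.91 per Mb in the interior, a ratio of 48.5. These cytosines had a level of 73.6% ± 0.815 (SD, n = 11 animals), and the X interior had 27.8% ± 0.703 (SD, n = 11). The low-coordinate end of the X held 7 cytosines at 12.6% ± 4.34 (SD, n = 11). All animals were labelled as the same tissue and the study's methods give all as male. These values were looked at after the other results were known and were not tested.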
